A study of Mus musculus with 10 samples.

Results

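Glutamate and GABA are the main excitatory and inhibitory transmitters of the brain, and the genes described here encode the subunits of their receptors. The set held every mouse gene whose symbol names a subunit of an AMPA, kainate, delta, NMDA or metabotropic glutamate receptor, or of a GABA-A or GABA-B receptor, 47 genes in all, and all 47 were among the 19965 genes measured. For each gene the probe set with the highest mean over all 10 samples was used. Cells came from the papain-dissociated hippocampus of mice heterozygous for Sox1-GFP, a reporter that makes green fluorescent protein (GFP) where the neural stem cell gene Sox1 is active, and were sorted by flow cytometry. There were 3 groups. The young GFP-positive group had 3 samples, aged 7, 5 and 4 months by title for replicates 1, 2 and 3. The young GFP-negative group had 3 as well, aged 7, 7 and 4 months, although the series description gives 5 to 7 months for all young mice. The old GFP-positive group had 4 samples, from mice aged 1 year 9 months. All mice carried the reporter, and the labels name no treatment. The RNA was amplified before hybridisation to Affymetrix gene expression arrays. The 10 samples include no GFP-negative cells of old mice.

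Ionotropic glutamate receptors (AMPA, kainate, NMDA) and GABA-A receptors are channels built from several subunits, and the subunits chosen set the speed, ion selectivity and drug response of the channel. Metabotropic glutamate receptors and the GABA-B receptor act through G proteins. In the hippocampus these receptors carry synaptic transmission between neurons, and astrocytes, radial stem cells and oligodendrocyte precursors also carry some of them. GABA acting on stem and progenitor cells of the dentate gyrus is known to influence their quiescence and the maturation of new neurons.

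Values are log2 RMA values (Robust Multichip Average, the authors' normalisation), so 1 unit is a 2-fold difference, and values of different genes are not compared with each other because each rests on its own probes. Array medians lay between 6.54 and 6.66, and arrays of a group correlated across genes with r between 0.967 and 0.986. Background is not marked in the table, and a gene with low values may not have been expressed at all. The fractions were checked against marker lists of 9 cell types. Genes of stem cells and astrocytes, which such a list cannot separate, were higher in young GFP-positive than GFP-negative cells for 8 of 10 members, with list means of 9.86 to 10.33 against 7.59 to 8.26. All 7 microglia, all 7 mature oligodendrocyte, all 7 oligodendrocyte precursor and all 6 endothelial markers were lower, as were 5 of 6 pericyte markers. Of 12 mature neuron markers 1 was higher and 2 were lower, and of 8 immature neuron markers 1 was higher and 1 lower. Sox1 itself had a log2 difference of 0.28 ± 0.11 (SE; limma, adjusted p = 0.123). Both replicate 1 samples of young mice had high choroid plexus markers, each with a list mean of 8.17, against 5.48 to 6.13 in the other 8 samples. Old replicate 3 had the Xist and Ddx3y values of a female and the other 9 samples those of males, and the labels give no sex.

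**Figure D1:**
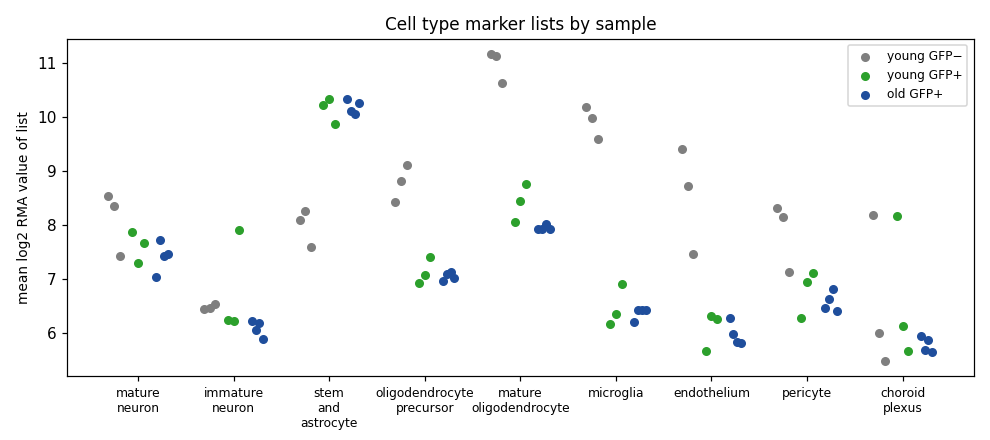
Mean log2 RMA value of each cell type marker list (vertical axis) in every sample, with young GFP-negative samples in grey, young GFP-positive in green and old GFP-positive in blue, replicates from left to right. Stem and astrocyte genes lie at 9.86 to 10.33 in young GFP-positive samples and at 7.59 to 8.26 in GFP-negative ones, and the mature neuron list is lowest among the GFP-negative samples in replicate 3.

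The first comparison asked in which receptor subunits the 2 sorted fractions of the young hippocampus differed, and differences are GFP-positive minus GFP-negative. Of the 47 genes, 8 were higher in GFP-positive cells, where 7.68% of all 19965 genes were higher, and 10 were lower, where 9.30% were (limma, Benjamini-Hochberg adjusted p under 0.05). Together these made up 38.3% of the subunit genes, against 17.0% of all genes. At an unadjusted p under 0.05 there were 23 subunit genes (48.9%), against 30.4% of all genes. The values of the groups did not overlap for 13 genes that were higher and 11 that were lower, where this held for 23.9% and 15.0% of all genes. The higher genes encode the GABA-A subunits Gabrg1, Gabrb1 and Gabra4, the GABA-B subunit Gabbr1, the NMDA subunit Grin2c, the metabotropic receptor Grm3, the kainate subunit Grik5 and the AMPA subunit Gria2. Among the lower genes were the AMPA subunits Gria3 and Gria4, the kainate subunits Grik1 and Grik3, the NMDA subunit Grin2a, the metabotropic receptors Grm5 and Grm7, and the GABA-A subunits Gabra3 and Gabrb2. The median log2 difference of the 47 genes was 0.00057, against 0.098 over all genes, and the median of the sizes without sign was 0.42 against 0.23. In sorted cell populations, fewer cells of a type and less RNA per cell cannot be told apart.

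**Figure D2:**
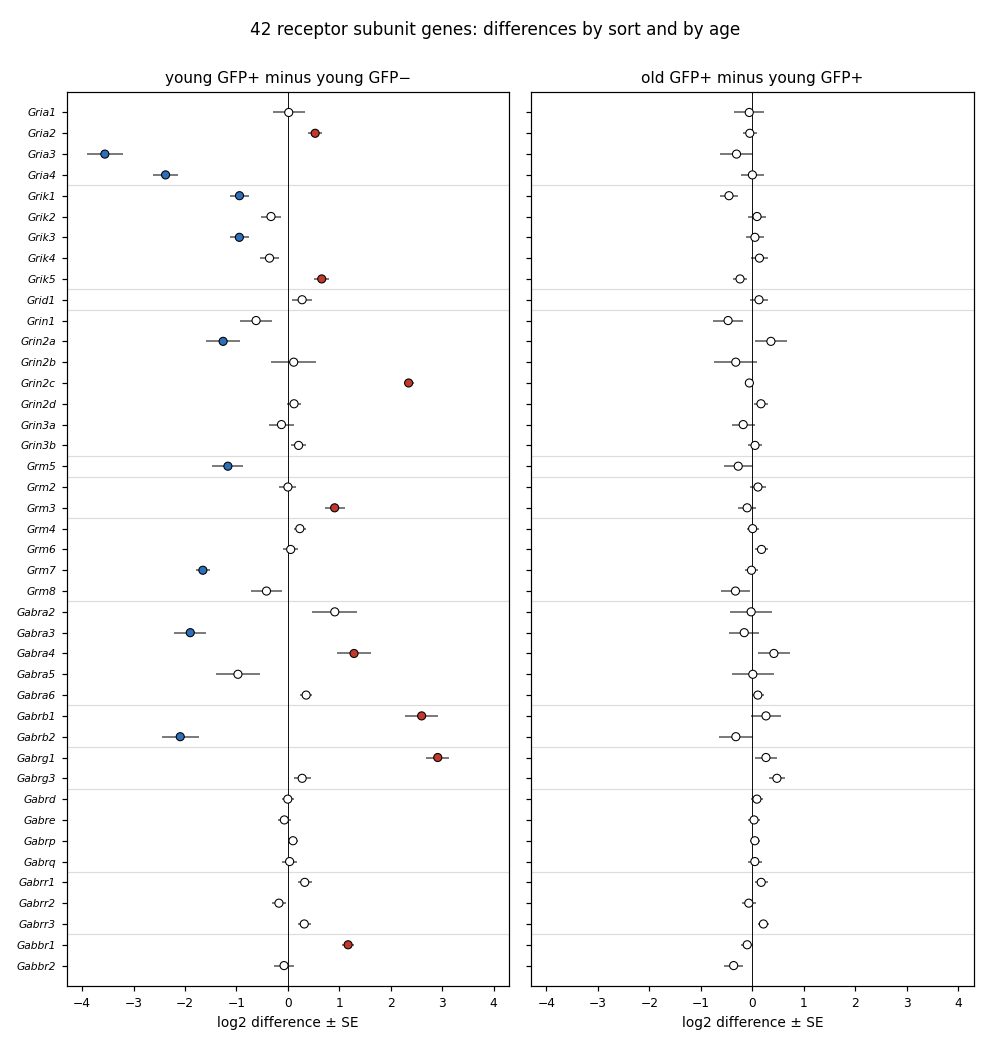
Log2 difference ± SE (horizontal axis) of 42 subunit genes, grouped by receptor class, for young GFP-positive minus young GFP-negative cells (left) and old minus young GFP-positive cells (right). Red and blue points are higher and lower genes past the test and white points did not pass. The left panel has 8 red and 9 blue points between -3.56 and 2.91, and the right panel has none.

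The 2 largest rises were those of Gabrg1 and Gabrb1, the outer genes of a cluster of GABA-A genes in the genome. Gabrg1, Gabra2, Gabra4 and Gabrb1 lie in a row on mouse chromosome 5 with 1 other protein-coding gene between them. The grouping by gene order was made after the values had been seen. The letters around their transcript starts are shown because 3 of the 4 genes rose together, from RefSeq in build GRCm38.p6, 5′ to 3′ on the gene's strand, 250 bases before and 50 from the start on. The windows are chr5:70842568-70842867 (minus strand) for Gabrg1, chr5:71095800-71096099 (minus) for Gabra2 and chr5:71658259-71658558 (minus) for Gabra4. Gabrb1 has 2 starts, with windows chr5:71657671-71657970 (plus) and chr5:71699682-71699981 (plus). Capitals mark CATTGT or its reverse complement ACAATG, a core sequence that SOX proteins bind, the only motif searched.
Gabrg1: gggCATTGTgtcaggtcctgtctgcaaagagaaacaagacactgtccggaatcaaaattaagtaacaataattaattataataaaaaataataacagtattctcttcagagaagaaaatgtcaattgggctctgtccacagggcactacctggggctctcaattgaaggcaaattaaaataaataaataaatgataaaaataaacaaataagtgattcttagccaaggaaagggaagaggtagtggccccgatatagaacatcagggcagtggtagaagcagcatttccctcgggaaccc
Gabra2: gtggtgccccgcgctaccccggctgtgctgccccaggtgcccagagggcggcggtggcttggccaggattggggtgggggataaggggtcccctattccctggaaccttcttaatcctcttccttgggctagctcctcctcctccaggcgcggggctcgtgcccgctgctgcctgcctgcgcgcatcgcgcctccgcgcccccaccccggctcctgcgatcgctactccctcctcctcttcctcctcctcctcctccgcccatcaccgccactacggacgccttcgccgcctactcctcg
Gabra4: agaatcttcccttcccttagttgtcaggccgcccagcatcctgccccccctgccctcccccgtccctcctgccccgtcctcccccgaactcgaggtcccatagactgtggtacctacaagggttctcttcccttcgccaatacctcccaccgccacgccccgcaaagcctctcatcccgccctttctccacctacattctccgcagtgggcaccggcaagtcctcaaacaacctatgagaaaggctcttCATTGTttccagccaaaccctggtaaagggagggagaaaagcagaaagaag
Gabrb1 upstream start: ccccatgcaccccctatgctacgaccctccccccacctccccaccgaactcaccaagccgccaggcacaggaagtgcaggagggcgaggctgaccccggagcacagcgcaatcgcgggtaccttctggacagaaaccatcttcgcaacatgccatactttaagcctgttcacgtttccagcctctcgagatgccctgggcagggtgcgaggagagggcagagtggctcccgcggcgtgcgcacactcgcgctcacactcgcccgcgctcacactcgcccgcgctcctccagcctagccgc
Gabrb1 downstream start: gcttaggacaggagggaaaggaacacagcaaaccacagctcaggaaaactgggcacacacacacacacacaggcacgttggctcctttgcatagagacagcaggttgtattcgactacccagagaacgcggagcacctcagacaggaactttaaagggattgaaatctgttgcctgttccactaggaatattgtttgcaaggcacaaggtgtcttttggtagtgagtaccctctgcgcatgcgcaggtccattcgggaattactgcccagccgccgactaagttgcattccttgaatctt
The Gabrg1 window had 38.3% G and C and 3 CG pairs, the Gabra2 window 70.0% and 25, and the Gabra4 window 58.7% and 12. For Gabrb1 the upstream window had 66.0% and 25, and the downstream window 50.3% and 9. The medians of all windows were 52.7% and 7. The upstream Gabrb1 start and the Gabra4 start lie 387 bases apart on opposite strands, and their transcripts run toward each other. The motif occurred in the Gabrg1 and Gabra4 windows, as in 12.6% of all 32851 windows in the table. It was found in 2 of 9 windows of higher subunit genes, 0 of 9 of lower ones and 1 of 21 of the others, over the 32 subunit genes with a window. A match of letters is not evidence of binding.

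Gabrg1 encodes the gamma 1 subunit, one of the less common subunits of GABA-A receptors. In young GFP-positive replicates 1, 2 and 3 it had log2 values of 10.43, 10.38 and 9.95, and in GFP-negative replicates 7.11, 7.04 and 7.89. The 2 groups were far apart, by 2.91 ± 0.22 (SE) on the log2 scale or 7.53-fold (limma, adjusted p = 5.34e-06). Gabrb1, the beta 1 subunit, had 10.45, 10.22 and 10.03 in GFP-positive and 7.82, 8.32 and 6.76 in GFP-negative samples. It was 6.06-fold higher (2.60 ± 0.32, SE, adjusted p = 0.000156), with GFP-negative replicate 3 the lowest. Gabra4, the alpha 4 subunit known from extrasynaptic receptors of dentate granule cells, had 7.87, 7.76 and 7.63 against 7.25, 6.65 and 5.50. Its difference of 1.29 ± 0.33 (SE) passed the test (limma, adjusted p = 0.0204), and it spread more among GFP-negative than among GFP-positive samples. Gabra4 was no longer called when young GFP-positive replicate 1 (limma, adjusted p = 0.0670) or 2 (0.0550) was left out and with only the groups compared in the fit (0.0664), and without young GFP-negative replicate 3 the difference was 0.80. Gabra2, the alpha 2 subunit, found at synapses of the axon initial segment, had 8.14, 7.62 and 7.56 against 7.73, 7.10 and 5.76. These values overlapped, and its difference of 0.91 ± 0.44 (SE) did not pass (limma, adjusted p = 0.187), although it did with age in months as a covariate (1.18, adjusted p = 0.0271). Leaving out 1 sample moved the Gabra2 difference between 0.36, without young GFP-negative replicate 3, and 1.35, and none of these passed.

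Gabrb2, the beta 2 subunit common in GABA-A receptors of adult neurons, lies on chromosome 11. It had 7.37, 6.10 and 6.90 in young GFP-positive and 8.79, 9.03 and 8.83 in GFP-negative samples, 4.26-fold lower (-2.09 ± 0.36, SE; limma, adjusted p = 0.00168). Every GFP-positive value lay below the GFP-negative ones, which spread little. Gabra6, also on chromosome 11 and best known from cerebellar granule cells, had low values, between 3.79 and 4.49, in all 10 samples (0.35 ± 0.12, SE; limma, adjusted p = 0.0643). Its young groups did not overlap (4.14 to 4.25 in GFP-positive, 3.79 to 3.87 in GFP-negative samples). Gabra6 passed with array weights (0.34, adjusted p = 0.0243) and with limma's variance trend and robust option (adjusted p = 0.0403). With quantile normalization it did not (0.21, adjusted p = 0.171).

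On chromosome 7, Gabra5 and Gabrg3 did not pass. Gabra5, a subunit of extrasynaptic receptors in hippocampal pyramidal cells, had a difference of -0.97 ± 0.43 (SE, adjusted p = 0.156), and passed without GFP-negative replicate 3 (-1.42, adjusted p = 0.0303), while without GFP-negative replicate 1 it was -0.53. Gabrg3 had 0.28 ± 0.17 (SE, adjusted p = 0.281). On the X chromosome Gabra3, the alpha 3 subunit, had 6.48, 5.87 and 6.92 against 8.53, 8.32 and 8.11, 3.73-fold lower (-1.90 ± 0.31, SE; limma, adjusted p = 0.00133), and all GFP-positive values lay below all GFP-negative ones. Its neighbours Gabre and Gabrq had values between 3.75 and 4.45 in all 10 samples and did not pass.

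The other GABA-A genes did not pass either. Gabrd, whose delta subunit pairs with alpha 4 in tonic receptors, had group means of 6.09 in both young groups. Gabrp had 5.05, 5.02 and 5.07 against 4.89, 5.01 and 4.95, a small difference without overlap of 0.098 ± 0.10 (SE, adjusted p = 0.532). Among the rho subunits Gabrr3 came closest, with 5.11, 4.83 and 4.84 against 4.55, 4.52 and 4.76 and a difference of 0.32 ± 0.12 (SE; limma, adjusted p = 0.106). Every GFP-positive value of Gabrr3 lay above the GFP-negative ones, and it passed with array weights (0.38, adjusted p = 0.0178).

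The GABA-B receptor needs both of its subunits, of which Gabbr1 binds GABA and Gabbr2 couples to G proteins. Gabbr1 had 9.81, 9.86 and 9.65 in young GFP-positive and 8.76, 8.65 and 8.41 in GFP-negative samples. It was 2.25-fold higher (1.17 ± 0.12, SE; limma, adjusted p = 4.82e-05), with little spread in either group. Gabbr2 had 7.65, 7.58 and 7.78 against 7.91, 7.97 and 7.36, so the groups overlapped and the test was not passed (-0.075 ± 0.19, SE, adjusted p = 0.809). The sign of the Gabbr2 difference turned with quantile normalization and without young GFP-negative replicate 1 or 2.

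**Figure D3:**
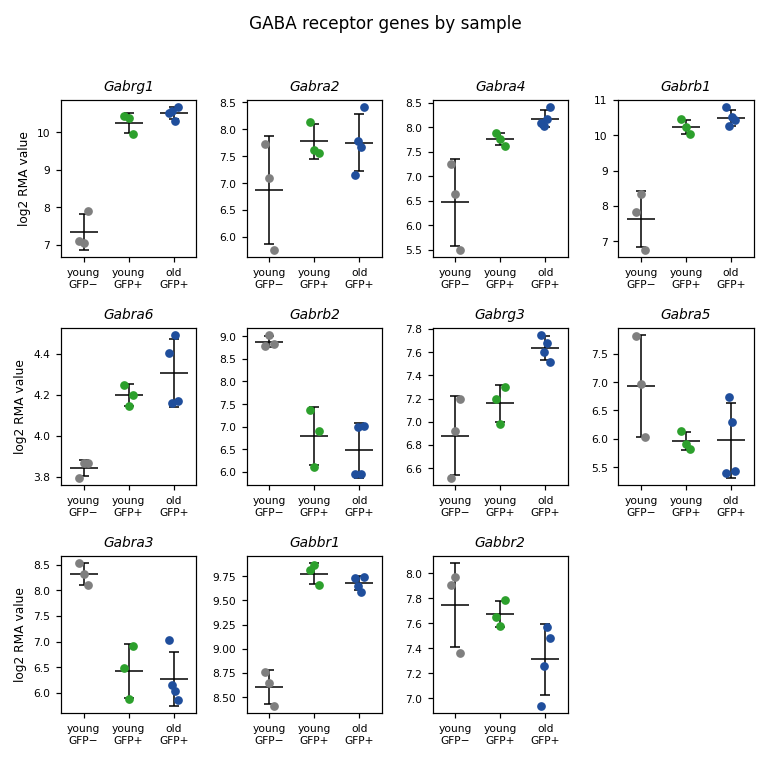
Log2 RMA value (vertical axis, a separate scale for each gene) of 11 GABA receptor genes in every sample, with the mean and SD of each group as bars. The top row holds the chromosome 5 genes, of which Gabrg1, Gabra4 and Gabrb1 are higher in GFP-positive cells, and below them Gabbr1 is higher and Gabrb2 and Gabra3 are lower.

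The AMPA receptor genes, which carry fast excitation, went different ways. Gria2, whose subunit in its edited form makes the channel impermeable to calcium, had 11.16, 10.90 and 11.36 in young GFP-positive and 10.45, 10.59 and 10.79 in GFP-negative samples. The groups were narrowly apart, by 0.53 ± 0.14 (SE; limma, adjusted p = 0.0236). Gria2 was no longer called when young GFP-positive replicate 1 (limma, adjusted p = 0.0708) or 3 (0.0848) was left out, without young GFP-negative replicate 1 (0.0969) or 2 (0.0765), with only the groups compared (0.0592), with age as a covariate (0.0815), and without both young replicate 1 samples (0.203). Gria3 had 5.91, 5.59 and 7.03 against 9.31, 9.82 and 10.07, and Gria4 had 6.85, 6.29 and 7.27 against 8.81, 9.20 and 9.54. Gria3 was thus 11.8-fold lower (-3.56 ± 0.35, SE; limma, adjusted p = 3.50e-05), the largest difference among the 47 genes, and Gria4 5.20-fold lower (-2.38 ± 0.24, SE, adjusted p = 4.40e-05). Both were highest in replicate 3 within each young group. The oligodendrocyte precursor markers were also highest in GFP-negative replicate 3, with list means of 8.42, 8.82 and 9.10 in the 3 replicates, and lay between 6.93 and 7.40 in GFP-positive ones. The immature neuron markers had a list mean of 7.91 in young GFP-positive replicate 3, against 5.89 to 6.54 in the other 9 samples. The part of these cell types in the Gria3 and Gria4 differences was not tested. Gria1, also highest in young GFP-positive replicate 3, had 7.60, 7.02 and 8.32 against 7.79, 7.97 and 7.13, and the groups overlapped (0.016 ± 0.31, SE, adjusted p = 0.977).

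Kainate receptors modulate transmitter release and excitability. Grik5, a high-affinity subunit that needs a partner such as Grik2 to form a channel, had 7.81, 8.05 and 8.12 in young GFP-positive and 7.23, 7.35 and 7.43 in GFP-negative samples, 1.58-fold higher (0.66 ± 0.15, SE; limma, adjusted p = 0.0104). Grik1 had 6.32, 6.0 and 5.79 against 6.54, 7.20 and 7.19, and Grik3 had 5.91, 6.05 and 6.37 against 6.82, 6.99 and 7.35. Each was 1.92-fold lower (limma, adjusted p = 0.00470 for Grik1 and 0.00378 for Grik3), and no value overlapped between the groups. Grik1 lost its call without both 4-month-old samples (-0.71, adjusted p = 0.0505). Grik2 did not pass (-0.33 ± 0.19, SE, adjusted p = 0.261), nor did Grik4, with group means of 5.89 and 6.25. With array weights Grik2 passed (-0.42; limma, adjusted p = 0.0466). The delta receptor gene Grid1 had 6.76, 6.95 and 6.71 against 6.28, 6.51 and 6.80, which overlapped, and did not pass (0.28 ± 0.19, SE; limma, adjusted p = 0.341).

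NMDA receptors combine the obligatory subunit Grin1 with Grin2 or Grin3 subunits. Grin2c, known in the forebrain mainly from astrocytes and some interneurons, had 9.21, 9.10 and 9.08 in young GFP-positive and 6.78, 6.73 and 6.84 in GFP-negative samples. The spread within groups was small beside the 5.09-fold difference (2.35 ± 0.10, SE; limma, adjusted p = 1.84e-07), which had the smallest p of the 47 genes. Grin2a, the subunit that gains on Grin2b as synapses mature, had 5.12, 4.85 and 5.20 against 6.63, 6.88 and 5.44, 2.39-fold lower (-1.26 ± 0.33, SE, adjusted p = 0.0227). GFP-negative replicate 3 lay close to the GFP-positive samples. Grin2a was no longer called when young GFP-positive replicate 1 (limma, adjusted p = 0.0557) or 2 (0.0761) was left out, without young GFP-negative replicate 1 (0.0928) or 2 (0.0953), and without both young replicate 1 samples (0.163). Grin1 had 7.61, 6.66 and 7.14 against 8.21, 8.0 and 7.05 (-0.62 ± 0.32, SE, adjusted p = 0.212), and passed without young GFP-negative replicate 3 (-0.97, adjusted p = 0.0353) and with array weights (-0.84, adjusted p = 0.0316). Leaving out 1 sample moved the Grin1 difference between -0.97 and -0.38, the latter without young GFP-positive replicate 2, and without young GFP-negative replicate 1 it was -0.39. Grin2b had 7.13, 6.92 and 7.41 against 7.55, 7.81 and 5.76, so that GFP-negative replicates lay on both sides of the GFP-positive ones (0.11 ± 0.44, SE, adjusted p = 0.878). Grin2d, Grin3a and Grin3b did not pass, with GFP-positive means of 5.33, 7.24 and 6.05 and GFP-negative means of 5.21, 7.36 and 5.84.

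Among metabotropic receptors, group I (with Grm5) acts through phospholipase C, and groups II (Grm2, Grm3) and III lower cyclic AMP. Grm3, the main group II receptor of astrocytes, had 11.02, 11.03 and 10.67 in young GFP-positive and 10.26, 10.23 and 9.51 in GFP-negative samples, 1.88-fold higher (0.91 ± 0.19, SE; limma, adjusted p = 0.00701). Grm5 had 7.63, 7.25 and 8.01 against 8.78, 9.07 and 8.54, 2.24-fold lower (-1.17 ± 0.30, SE, adjusted p = 0.0208). The values of these genes did not overlap between the groups. Grm5 was no longer called when young GFP-positive replicate 1 (limma, adjusted p = 0.0583) or 2 (0.0802) was left out, without young GFP-negative replicate 1 (0.0599) or 2 (0.0856), and without both young replicate 1 samples (0.127). Grm7, a presynaptic group III receptor, had 4.95, 5.18 and 5.34 against 6.97, 6.87 and 6.59, 3.14-fold lower (-1.65 ± 0.14, SE, adjusted p = 1.23e-05), with a wide gap between the groups. Grm2, Grm4, Grm6 and Grm8 did not pass. Their GFP-positive means were 6.76, 5.66, 5.86 and 5.28, and their GFP-negative means 6.76, 5.43, 5.81 and 5.70, in that order.

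**Figure D4:**
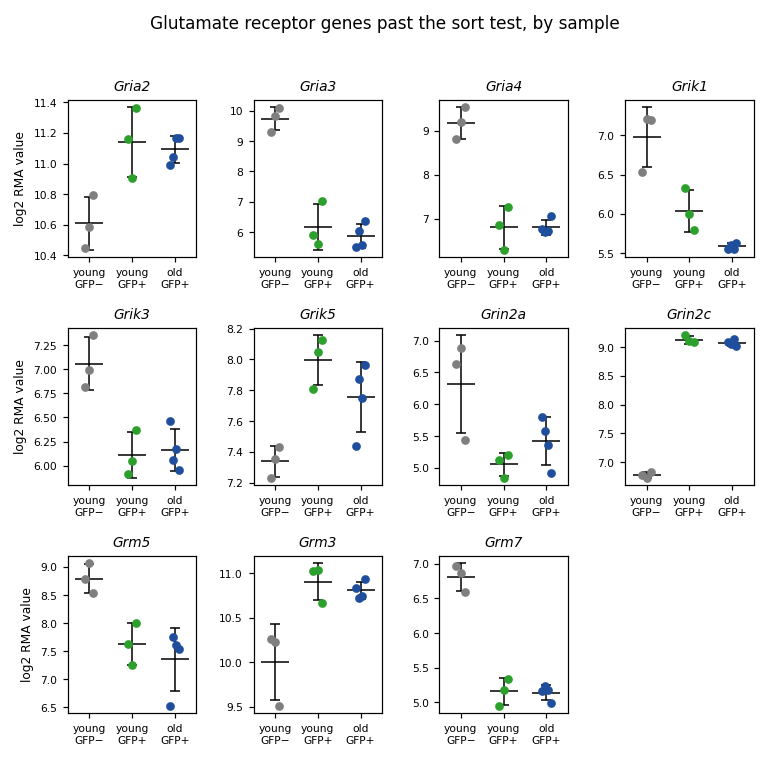
Log2 RMA value (vertical axis, a separate scale for each gene) of the 11 glutamate receptor genes past the sort test in every sample, with the mean and SD of each group as bars. Gria2, Grik5, Grin2c and Grm3 are higher in young GFP-positive than GFP-negative cells and the other 7 lower. The old samples overlap the young GFP-positive ones except in Grik1, where they lie below. Old values of Grin2a run from 4.92 to 5.80, young GFP-positive ones from 4.85 to 5.20.

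The GFP-negative samples differed among themselves. The 10 subunit genes with the widest range over these 3 samples were all lowest in replicate 3, among them Grin2b, Gabra2, Gabra5, Gabra4, Gabrb1, Grin2a, Grm8 and Grin1, with ranges from 1.15 to 2.05 log2 units. The mature neuron list had means of 8.53, 8.36 and 7.42 in GFP-negative replicates 1, 2 and 3, and between 7.29 and 7.86 in young GFP-positive samples. Among the GFP-negative samples 7 of the 9 marker lists were lowest in replicate 3, all but those of immature neurons and oligodendrocyte precursors. The endothelial list, for example, had 9.41, 8.72 and 7.47. Over the 47 genes replicate 3 was the lowest for 21 (44.7%, against 30.5% of all genes) and the highest for 19 (40.4%, against 43.9%). The part of these cell types in the differences above was not tested.

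Pairs of genes for the same kind of subunit, or for metabotropic receptors, were set against each other within each sample, as the log2 value of one minus that of the other. Such a difference shows unequal change of the genes and not which is more abundant. It rests on the same values as the tests of the single genes and is no separate evidence. Of the genes in the pairs shown, Gria2, Grm3, Grm5 and Grin2a passed the sort test. Grm3 minus Grm5 was 3.39, 3.78 and 2.66 in young GFP-positive and 1.49, 1.16 and 0.97 in GFP-negative samples, a shift of 2.07. Grin2b minus Grin2a was 2.01, 2.07 and 2.21 against 0.92, 0.93 and 0.32, a shift of 1.37. In both pairs all young GFP-positive samples lay above all young GFP-negative ones. In old GFP-positive samples Grm3 minus Grm5 ran from 2.97 to 4.31. Grin2b minus Grin2a ran from 0.43 to 2.19 there, so it reached below GFP-negative replicates 1 and 2. Each of these shifts had p = 0.1 in a two-sided exact permutation test, the smallest that 3 against 3 samples allow, and 0.125 after Benjamini-Hochberg adjustment over the 5 pairs computed. Gria2 minus Gria1 overlapped between the groups (shift 0.51, exact p = 0.3, adjusted p = 0.3).

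**Figure D5:**
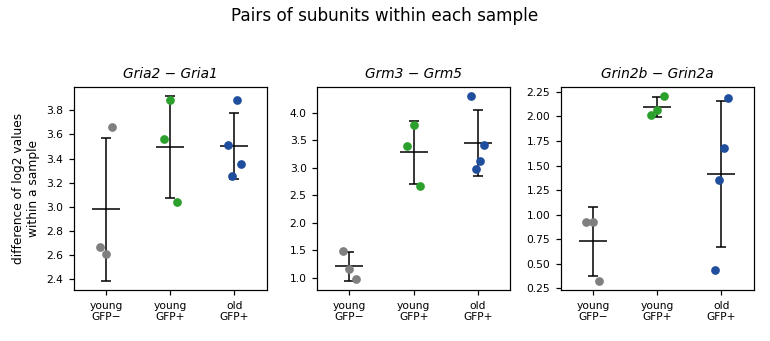
Difference between the log2 values of paired subunits within each sample (vertical axis, a separate scale for each pair), with the mean and SD of each group as bars. In Grm3 minus Grm5 and Grin2b minus Grin2a all 3 young GFP-positive samples lie above all 3 GFP-negative ones, and Gria2 minus Gria1 overlaps.

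Proteins that accompany these receptors were followed through 3 lists. Of 14 genes for auxiliary subunits of AMPA and kainate receptors, 1 was higher and 2 were lower, with a median of -0.28. The shares of all genes were 7.68% higher and 9.30% lower, and the counts of these lists lie near them. Cacng8, an AMPA receptor auxiliary subunit abundant in the hippocampus, was higher (0.52 ± 0.15, SE; limma, adjusted p = 0.0390), a call lost in 11 of 17 other settings, among them without any 1 of the 3 GFP-positive samples, GFP-negative replicate 1 or GFP-negative replicate 3 (adjusted p from 0.0590 to 0.141). Cacng4, its relative, was lower (-1.05 ± 0.23, SE, adjusted p = 0.00877), and so was Shisa7 (-1.06 ± 0.25, SE, adjusted p = 0.0117), which lost its call without GFP-positive replicate 1 (0.0527) or GFP-negative replicate 2 (0.0558). Of 15 measured scaffold genes of glutamate synapses 2 were lower and 0 higher, with a median of -0.051. These were Dlg2 (-2.03 ± 0.36, SE, adjusted p = 0.00208) and Dlg1 (-0.69 ± 0.13, SE, adjusted p = 0.00340), which anchor receptors through PDZ domains. Of 12 genes for scaffolds and partners of GABA receptors 2 were higher and 0 lower, with a median of -0.064. Gphn, the scaffold of inhibitory synapses, was higher (0.51 ± 0.11, SE; limma, adjusted p = 0.00652). Trak1, a kinesin adaptor of the family that traffics GABA-A receptors, was higher by 0.72 ± 0.17 (SE, adjusted p = 0.0110). Without both young replicate 1 samples no gene of these lists was higher at an adjusted p under 0.05 (limma), and 5 were at an unadjusted one.

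The second comparison asked whether the subunits of GFP-positive cells differed between old and young mice, and differences are old minus young. No subunit gene passed the test (limma), in a comparison in which 0.0150% of all genes did, 3 of 19965. At an unadjusted p under 0.05 there were 3 of the 47 genes, or 6.38%, against 10.2% of all genes. Grik1 and Gabrg3 were among them. The differences had a median of 0.0073 for the subunit genes and 0.053 for all genes. For 39 of the 47 genes the 95% interval of the difference lay within 1 log2 unit of 0, so that a 2-fold change in either direction was outside it. Genes with wider intervals, such as Grin2b (-1.23 to 0.59), were not measured precisely enough to bound such a change.

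None of the genes past the sort test passed the test by age (limma), which does not show that their values were alike. Gabrg1 had 10.52, 10.58, 10.31 and 10.68 in old replicates 1 to 4 (0.27 ± 0.21, SE; limma, adjusted p = 0.646). Gabrb1 had 10.80, 10.26, 10.50 and 10.44 (0.27 ± 0.30, SE, adjusted p = 0.740), and Grin2c 9.08, 9.05, 9.14 and 9.02 (-0.056 ± 0.092, SE, adjusted p = 0.822; 0.038 with quantile normalization). Gabbr1 had 9.73, 9.65, 9.59 and 9.74 (-0.098 ± 0.11, SE, adjusted p = 0.749). Each of these old groups overlapped the young GFP-positive one. Over the 18 genes past the sort test the age differences ran from -0.45 to 0.42, and both comparisons share the young GFP-positive samples.

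The old values of 4 genes lay apart from the young GFP-positive ones, though none of these genes passed the test. Gabrg3 and Gabra4 lay above (4.26% of the 47 genes, against 6.85% of all genes). Grik1 and Gabbr2 lay below (4.26%, against 4.06%). These shares were below or near those of all genes. Gabrg3, the gamma 3 subunit, had 7.75, 7.60, 7.68 and 7.51 in old against 7.19, 6.98 and 7.30 in young samples (0.48 ± 0.16, SE; limma, adjusted p = 0.369). Grik1 had 5.55, 5.61, 5.55 and 5.63 against 6.32, 6.0 and 5.79 (-0.45 ± 0.17, SE; limma, adjusted p = 0.433). Gabra4 had 8.09, 8.02, 8.17 and 8.41 against 7.87, 7.76 and 7.63 (0.42 ± 0.31, SE, adjusted p = 0.633). Gabbr2 had 6.94, 7.26, 7.57 and 7.48 against 7.65, 7.58 and 7.78 (-0.36 ± 0.18, SE, adjusted p = 0.520). None of the 3 lists of accompanying proteins had a gene past the test by age (limma), with 0 of 14, 2 of 15 and 1 of 12 genes at an unadjusted p under 0.05, where 10.2% of all genes had one.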

How the data were processed

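The deposited table holds log2 expression values by Robust Multichip Average (RMA), 1 column per array, per the submitters' processing notes. Per the series description, the authors regrouped probes by RefSeq transcript of build mm9 and left out 1 young array with skewed fold changes. The RMA version was not given in the sources used here. RMA makes the arrays' distributions alike, which removes differences in total signal between arrays, and background signal makes changes of dim genes look smaller. The number of arrays limits the precision.

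Of 31672 probe sets, 24590 matched 1 symbol in a RefSeq gene table of GRCm38.p6, used for names and gene order. The rest stayed out. The brightest probe set stood for a gene, which left 19965 genes, and 11 of the 47 subunit genes had several. Genes were tested with limma 3.58.1 in R 4.3.3 (lmFit, eBayes). All 10 samples entered 1 model with a mean for each of the 3 groups, which left 7 residual degrees of freedom, and the prior added 4.07. Tests were two-sided, with Benjamini-Hochberg adjustment over all genes and a threshold of 0.05. SE is the moderated standard error. The script was tested on simulated data. Significance Analysis of Microarrays, named in the series description, was not run. Pairs were compared with scipy 1.17.1, and figures drawn with matplotlib 3.10.9.

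The titles call the samples biological replicates. They do not say whether young fractions with equal numbers came from the same mouse, and the ages for number 2 differ (5 and 7 months). The subunit genes, lists and alternatives were chosen with earlier results of these data known. Every subunit gene was to be accounted for. The counts cover all 47 genes, of which 5 are not reported by name here. Values per sample were given for those past the test and, in classes without one, for that with the smallest p. Other genes shown in full, and the age examples, were chosen after their values were seen. Of the accompanying lists, up to 3 genes past the test in each direction were named.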

Additional observations from a re-analysis of the deposited data

Results flagged for a closer look

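Of 42 genes examined in the group of 4 old samples, 1, Grid1, had a sample far from the others. Chance gives this in about 1 in 20 groups, so a single case is no more than chance gives. Grid1 had 7.40 in old replicate 1 and 6.72 to 6.81 in the others, a gap of 0.862 of the range. The mature neuron list was lowest in the same sample, with a mean of 7.04, and the cause was not tested.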

How the results depend on the processing

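Of the 18 subunit genes past the sort test, 13 kept their call in every one of the 17 alternatives that tested them, 6 higher and 7 lower. The exceptions were Gria2, Gabra4, Grik1, Grin2a and Grm5. The counts of subunit genes were 6 to 8 higher and 8 to 12 lower when 1 sample was left out, and 11 higher and 15 lower with array weights. No alternative gave a subunit gene past the age test. A filter on dim genes removed 12 of the 47 genes, Grin2a and Grm7 among them. Whether equal replicate numbers mark a shared mouse is not given by the labels, and the numbers were not taken to pair the samples. Ages match for numbers 1 and 3 and differ for number 2. Deviations of same-numbered young samples correlated with r of 0.12, 0.021 and 0.19 for numbers 1, 2 and 3. Those of unlike-numbered young samples had r between -0.18 and 0.078, below the values for numbers 1 and 3. With a replicate block 7 subunit genes were higher and 8 lower, and the calls of Gria2 (adjusted p = 0.0502), Grik1 (0.0711), Grin2a (0.0773) and Cacng4 (0.0512) were lost.

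The auxiliary and scaffold genes gave 3 higher and 4 lower calls. The lower ones became 13 with array weights and 9 without both 4-month-old samples, and 3 to 7 when 1 sample was left out, 7 without young GFP-negative replicate 3. The higher ones became 0 without both young replicate 1 samples. The direction turned for genes with small differences: Gria1 with the mean of all probe sets (-0.034), array weights (-0.37) and without both 4-month-old samples (-0.57), and Grin2b with array weights (-0.43) and without those samples (-0.66). Without 1 sample Gria1 ran from -0.32 to 0.33, Grin2b from -0.53 to 0.50 and Gabbr2 from -0.27 to 0.037. Gabbr2 had 0.013 and Gabrp -0.021 with quantile normalization, Gabbr2 0.015 without both young replicate 1 samples, and by age Grin2c 0.038 with quantile normalization.

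Over all genes 1533 were higher and 1857 lower in the sort comparison. With array weights 3035 were higher, with every probe set 2417 higher and 2825 lower, and without both young replicate 1 samples 777 and 1064. By age 3 genes were lower and 0 higher, and 0 to 16 lower and 0 to 4 higher in the alternatives. The cause of these changes was not tested.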

Other observations

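Of the 11 subunit genes with several probe sets, Gria4 had one that differed by age more than the one used. It stood at -0.61 (old minus young, limma, adjusted p = 0.610 over all probe sets), against 0.0030 for the one used. In the sort comparison the probe sets of Gria2, Gria4, Grik1 and Grm5 all passed the test, and those of the other 7 genes all did not.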
